A study of Trichoderma reesei with 17 samples.

Results

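The genes described here encode the core enzymes that cut β-glucan chains in Trichoderma reesei, a filamentous fungus used for industrial cellulase production: the cellobiohydrolases cbh1 (protein 123989) and cbh2 (protein 72567), the endoglucanases egl1 (protein 122081), egl2 (protein 120312), cel12a (protein 123232) and egl5 (protein 49976), and the xyloglucanase cel74a (protein 49081). They were chosen by protein ID, with earlier results of these data known but with no threshold on a measured value, and are 7 of the 9129 genes in the count table. RNA-seq read counts were used from 17 libraries of strain QM9414 and of Δxyr1, a mutant of QM9414 that lacks the transcription factor gene xyr1. Both strains were grown with cellulose (1%, Avicel), with the disaccharide sophorose (1 mM) or with glucose (2%), shaken at 200 rpm and 28°C. There were 3 libraries each of Δxyr1 in cellulose (RNA of 8 and 24 h) and QM9414 in cellulose (24, 48 and 72 h), 3 each of Δxyr1 and QM9414 in sophorose (2, 4 and 6 h), 3 of Δxyr1 in glucose (24 and 48 h) and 2 of QM9414 in glucose (24 and 48 h, replicates 1 and 3, replicate 2 not analysed here). The RNA of these time points was pooled within each replicate, so a level is an average over times. In cellulose the strains also differed in culture time, and strain and time cannot be told apart there. Nor can carbon source and culture time be told apart within a strain, since the cultures in cellulose, sophorose and glucose were sampled at different times. The mutant also had a glycerol pre-culture before one of the inducing carbon sources, and the sources used here differ on whether it was cellulose or sophorose.

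Cellulose is opened by enzymes with different points of attack. Endoglucanases cut inside the chain and create free ends, and cellobiohydrolases then move along the chain from those ends and release cellobiose. In T. reesei CBH1 works from the reducing end and CBH2 from the non-reducing end, and the products are split to glucose by β-glucosidases. Xyloglucanases cut the xyloglucan that coats cellulose in plant cell walls. XYR1 is a zinc cluster activator of cellulase and xylanase genes, sophorose is a soluble inducer of cellulases, and glucose is a repressing carbon source.

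The deleted gene was examined first. Over its annotated span, xyr1 had 124, 139 and 103 counts in Δxyr1 against 10754, 9153 and 11010 in QM9414 in cellulose, and 1214, 1270 and 1300 counts in Δxyr1 against 28685, 45128 and 42502 in QM9414 in sophorose. In glucose it had 19, 46 and 74 counts in Δxyr1 against 102 and 191 in QM9414. The strains did not overlap in any carbon source, although reads were still counted on xyr1 in the mutant, most of all in sophorose. Library totals lay between 7014100 and 29056712 counts (median 14468110). A pair of mutant libraries stood apart. In Δxyr1 sophorose replicate 3 and Δxyr1 glucose replicate 1, a single gene (protein 48266) took 35.0% and 24.9% of all counts, against 1.68% to 18.4% for the most abundant gene of every other library. In the same libraries cbh1, cbh2, egl2 and cel12a were close to or at 0, as described further on. The comparisons of the strains in sophorose and in glucose are given with and without these libraries. CPM is used for the level of a gene in a library: its reads relative to the library total, the total being multiplied by a TMM factor that corrects for library composition. At these totals 3 counts, the limit that a count of 0 allows, correspond to between 0.149 and 0.356 CPM, and this limit covers counting error only.

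Cbh1 encodes the enzyme that starts at the reducing chain end. In cellulose it had 55.7, 14.2 and 18.9 CPM in Δxyr1 against 11787, 13431 and 13077 CPM in QM9414. In sophorose it had 30.8, 57.9 and 0.720 CPM in Δxyr1 against 14576, 14877 and 12363 CPM in QM9414. The strains were far apart in both, and the mutant libraries spread much more widely than those of QM9414. In glucose cbh1 had 0.320, 23.9 and 31.3 CPM in Δxyr1 against 28.7 and 16.5 CPM in QM9414, so that the strains overlapped, with replicate 1 of the mutant far below the rest.

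Cbh2, which encodes the cellobiohydrolase of the other chain end, followed cbh1 closely. It had 22.9, 5.15 and 5.95 CPM in Δxyr1 against 5444, 6282 and 6195 CPM in QM9414 in cellulose. In sophorose it had 14.0, 20.5 and 0.288 CPM in Δxyr1 against 6056, 5284 and 4810 CPM in QM9414. The same mutant libraries were high and low as for cbh1. In glucose its levels were 0, 9.60 and 15.4 CPM in Δxyr1 against 13.9 and 6.66 CPM in QM9414, again with overlap. The count of 0 in Δxyr1 glucose replicate 1 allows up to 0.160 CPM.

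**Figure D1:**
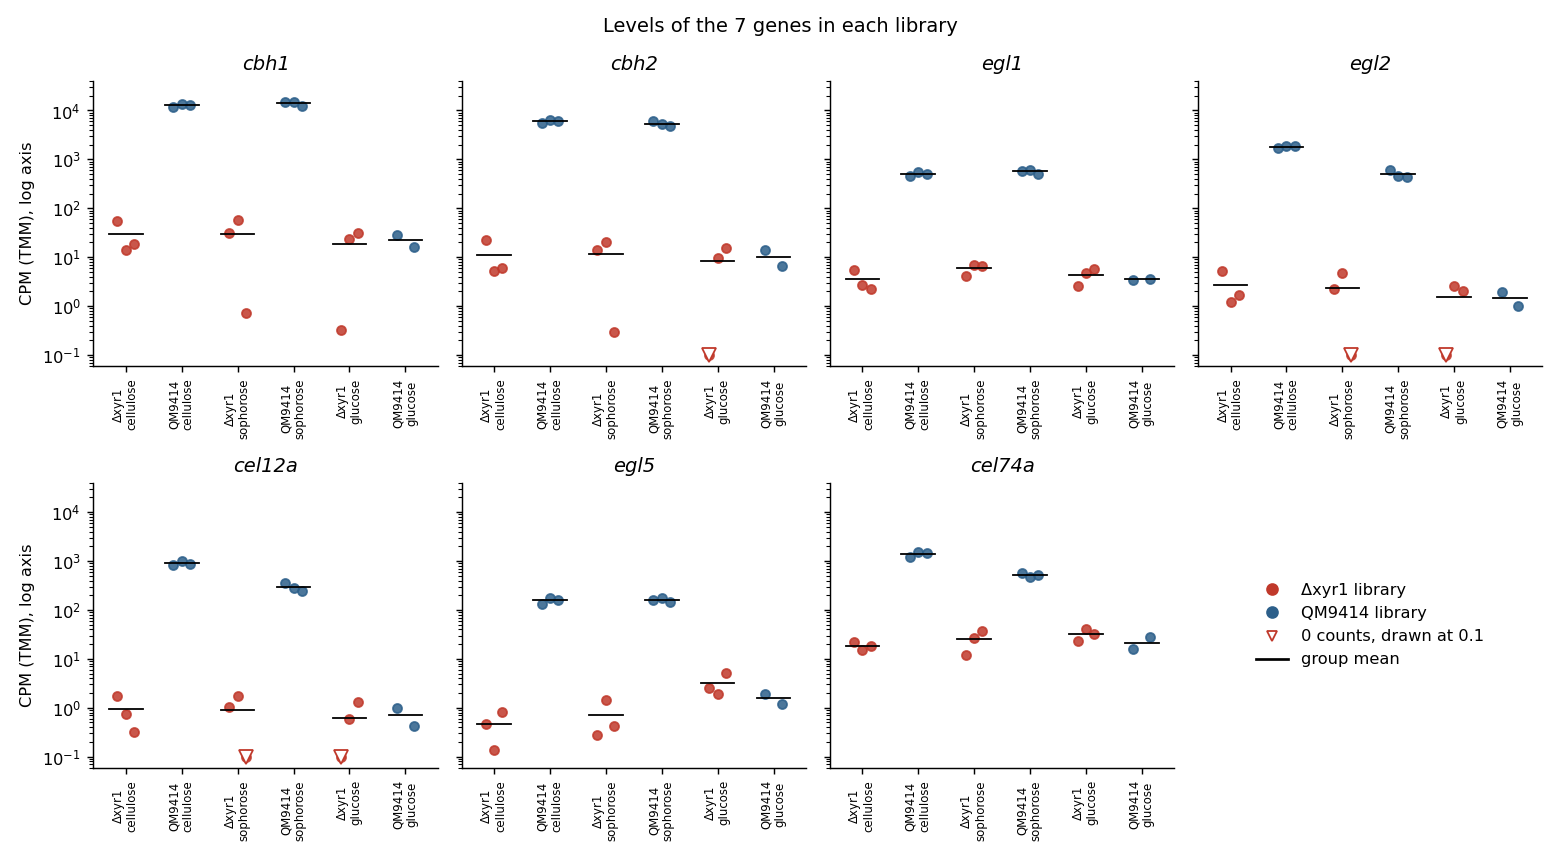
Levels of the 7 genes in each library, as CPM with TMM factors on a log axis, by strain and carbon source (points are libraries, black lines are group means, and open triangles are libraries with 0 counts, drawn at 0.1). QM9414 in cellulose and sophorose lies far above the other 4 groups for every gene, for example between 11787 and 14877 CPM for cbh1, and the points near the bottom of the cbh1, cbh2, egl2 and cel12a panels are Δxyr1 sophorose replicate 3 and Δxyr1 glucose replicate 1.

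Egl1 encodes an endoglucanase of the same glycoside hydrolase family as CBH1. It had 5.57, 2.68 and 2.28 CPM in Δxyr1 against 462.8, 551 and 491 CPM in QM9414 in cellulose. In sophorose it had 4.06, 6.93 and 6.70 CPM in Δxyr1 against 571, 618 and 508 CPM in QM9414. Its mutant libraries lay within a narrow band, and sophorose replicate 3 was not among the low ones. In glucose it had 2.56, 4.85 and 5.84 CPM in Δxyr1 against 3.43 and 3.62 CPM in QM9414, with overlap.

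Egl2 encodes a major endoglucanase of family GH5. In cellulose it had 5.10, 1.24 and 1.71 CPM in Δxyr1 against 1726, 1894 and 1859 CPM in QM9414. In sophorose its levels were 2.20, 4.68 and 0 CPM in Δxyr1 against 615, 453 and 444 CPM in QM9414. QM9414 was thus higher in cellulose than in sophorose in every library, unlike egl1. In glucose it had 0, 2.52 and 2.07 CPM in Δxyr1 against 1.90 and 0.996 CPM in QM9414. The zero of sophorose replicate 3 allows up to 0.216 CPM and that of glucose replicate 1 up to 0.160 CPM.

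Cel12a encodes a small endoglucanase without a cellulose-binding module. In cellulose it had 1.78, 0.756 and 0.326 CPM in Δxyr1 against 837, 1009 and 884 CPM in QM9414. In sophorose it had 1.03, 1.73 and 0 CPM in Δxyr1 against 350.1, 278 and 243 CPM in QM9414. Like egl2, it was higher in cellulose than in sophorose in every QM9414 library. In glucose it had 0, 0.582 and 1.31 CPM in Δxyr1 against 0.993 and 0.419 CPM in QM9414, which are values of at most 17 counts per library and carry a wide counting error.

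Egl5 encodes a small endoglucanase of family GH45. It had 0.474, 0.137 and 0.815 CPM in Δxyr1 against 134, 175 and 164 CPM in QM9414 in cellulose. In sophorose it had 0.275, 1.41 and 0.432 CPM in Δxyr1 against 164, 173 and 145 CPM in QM9414. The mutant was lower still here than in glucose. There egl5 had 2.51, 1.94 and 5.15 CPM in Δxyr1 against 1.90 and 1.21 CPM in QM9414, with every mutant library above both QM9414 libraries.

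Cel74a encodes the xyloglucanase of family GH74. In cellulose it had 22.3, 15.2 and 18.1 CPM in Δxyr1 against 1219, 1544 and 1476 CPM in QM9414. In sophorose it had 11.98, 26.3 and 37.5 CPM in Δxyr1 against 563, 469 and 511 CPM in QM9414. Sophorose replicate 3, in which cbh1, cbh2, egl2 and cel12a were close to 0, held the highest of the mutant values for cel74a in sophorose. In glucose it had 23.4, 41.6 and 31.9 CPM in Δxyr1 against 15.7 and 27.4 CPM in QM9414, with overlap.

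To rank the genes against each other, CPM was divided by the length of the annotated gene span in RefSeq, introns included. In QM9414 in cellulose the order of the means was cbh1 (6307 ± 427 CPM per kb), cbh2 (3111 ± 240), cel12a (976 ± 95.1), egl2 (952 ± 46.2), cel74a (497 ± 60.2), egl1 (312 ± 28.1) and egl5 (161 ± 21.4, SD, n = 3 for each). Only cel12a and egl2 overlapped among neighbours in this order. In QM9414 in sophorose cbh1 (6887 ± 678 CPM per kb) and cbh2 (2804 ± 328) were again ahead, and egl1 (351 ± 34.3) stood next, followed by cel12a (312 ± 58.7), egl2 (263 ± 50.1), cel74a (181 ± 16.6) and egl5 (164 ± 14.4). There egl1, cel12a and egl2 overlapped as neighbours, and so did cel74a and egl5. In the mutant and in QM9414 in glucose the group means were all under 15 CPM per kb, and cbh1 and cel74a held the top 2 places, with overlapping libraries, in each of those 4 groups.

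The strains were compared to ask how far each gene depends on xyr1. In cellulose all 7 genes were lower in Δxyr1, where 10.3% of the 8506 genes tested were called lower. Calls required an adjusted p no higher than 0.05 (quasi-likelihood test of edgeR, Benjamini-Hochberg adjustment over all genes tested) and a log2 fold change no smaller than 1 in size. Cel12a had the log2 fold change farthest from 0 among the 7, −10.00 (95% interval −11.7 to −8.30), and egl2 followed with −9.49 (−11.8 to −7.19). The cellobiohydrolase genes had −9.06 for cbh2 (−12.2 to −5.89) and −8.76 for cbh1 (−11.9 to −5.58). Egl5 with −8.40 (−9.46 to −7.35), egl1 with −7.20 (−7.99 to −6.42) and cel74a with −6.26 (−7.12 to −5.39) were nearer to 0, with narrower intervals. The adjusted p of the 7 genes was at most 0.000254 by edgeR, the median of their log2 fold changes was −8.76, and that of all genes tested was −0.02.

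In sophorose all 7 genes were again lower in Δxyr1, where 6.47% of the genes tested were called lower. Cbh1 (log2 fold change −8.87, 95% interval −12.1 to −5.67) and cbh2 (−8.85, −12.0 to −5.71) had the lowest values of all 8506 genes tested, and cel12a (−8.25, −9.84 to −6.67) the next. Egl5 had −7.78, egl2 had −7.75 and egl1 had −6.58. Cel74a was the least changed, at −4.35 (−5.13 to −3.56), which is a level 20.3-fold lower in the mutant. The median of the 7 was −7.78, against 0.03 for all genes tested, and their adjusted p in edgeR was at most 0.000282. Without Δxyr1 sophorose replicate 3 and Δxyr1 glucose replicate 1 all 7 remained called, with −8.29 for cbh1, −8.28 for cbh2, −7.70 for cel12a and −7.19 for egl2.

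In glucose none of the 7 genes was called between the strains, where 2.60% of the genes tested were called in either direction. The log2 fold changes lay between −0.31 for cbh2 and 1.09 for egl5, and the median was 0.02. Egl5 was the only one of the 7 whose strains did not overlap (log2 fold change 1.09, 95% interval 0.04 to 2.15, adjusted p = 0.197 by edgeR), and it was also the only one with an unadjusted p under 0.05. DESeq2 called none of the 7 either. How many of all genes tested had no overlap between the strains in glucose, or an unadjusted p that low, was not counted. The intervals of cbh1 (−2.86 to 2.28), cbh2 (−2.91 to 2.28), egl2 (−2.40 to 2.44) and cel12a (−2.47 to 2.10) were wide enough to hold changes of more than 4-fold in either direction, so these values do not show that the strains were alike. Without the pair of libraries that stood apart, the value became 0.31 for cbh1, 0.32 for cbh2, 0.60 for cel12a and 0.74 for egl2, and none of the 7 was called.

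**Figure D2:**
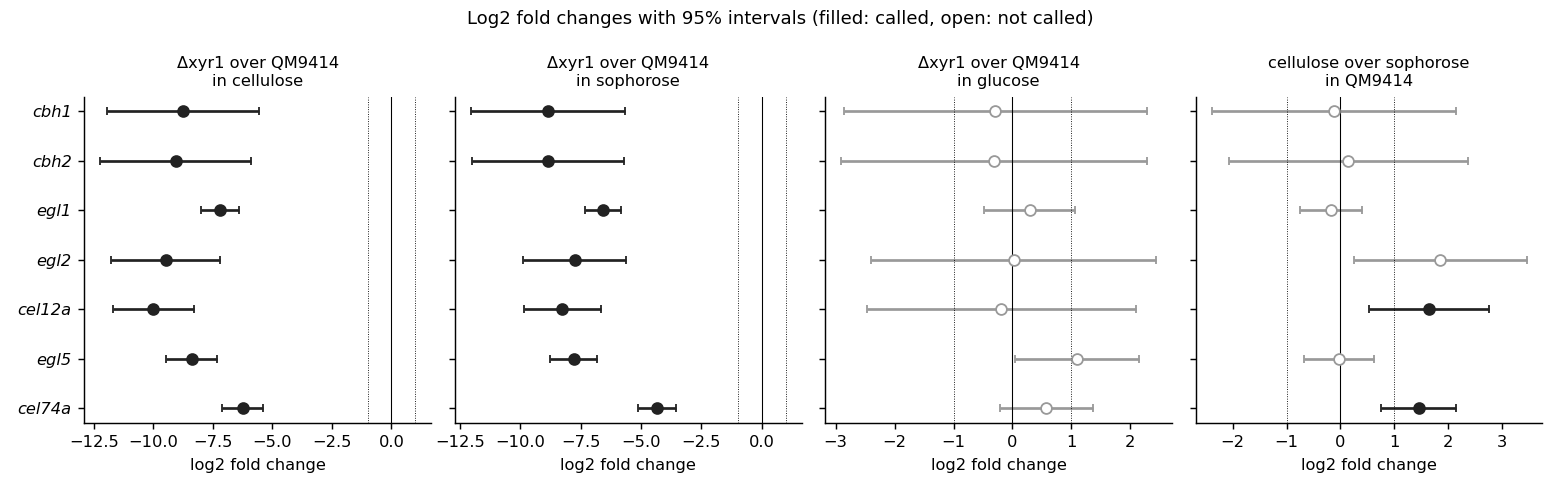
Log2 fold changes of the 7 genes with their 95% intervals from the edgeR fit, for Δxyr1 over QM9414 in cellulose, sophorose and glucose and for cellulose over sophorose in QM9414 (filled points were called, open points were not, and dotted lines mark a log2 fold change of 1 in size). All 7 genes lie at −4.35 or below in both inducing carbon sources, none was called in glucose, and the right panel separates cel12a (1.65), cel74a (1.46) and the open point of egl2 (1.86) from the other 4, which lie near 0.

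Together the 7 genes took between 0.00515% and 0.0137% of all counts in Δxyr1 against 2.22% to 2.86% in QM9414 in cellulose, and between 0.00241% and 0.0122% in Δxyr1 against 2.20% to 2.80% in QM9414 in sophorose. The means in cellulose were 0.00826 ± 0.00472% in Δxyr1 and 2.58 ± 0.330% in QM9414 (SD, n = 3 each), a share 312-fold lower in the mutant. Those in sophorose were 0.00734 ± 0.00490% in Δxyr1 and 2.53 ± 0.308% in QM9414 (SD, n = 3 each), or 345-fold lower. That is a log2 ratio of −8.43, and −8.01 without Δxyr1 sophorose replicate 3. The exact two-sided permutation test gave p = 0.1 for each, the smallest value that 3 libraries against 3 allow. In glucose the share was 0.00496 ± 0.00276% in Δxyr1 (n = 3) and 0.00658 ± 0.00127% in QM9414 (n = 2), and the exact permutation test gave p = 0.6. This test doubles the p of the smaller tail, and in that form 3 against 2 allow no p below 0.2. The log2 ratio there was −0.41, and −0.014 without Δxyr1 glucose replicate 1.

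Within QM9414 the carbon sources were compared to see how far each gene differed between inducing and repressing cultures. In cellulose against glucose all 7 genes were higher, where 19.2% of the genes tested were called higher. Cel12a (log2 fold change 10.43) and egl2 (10.35) were the most changed, cbh2 (9.19) and cbh1 (9.15) came next, and egl1 (7.15), egl5 (6.71) and cel74a (6.03) were last. In sophorose against glucose all 7 were higher as well, where 19.6% were called higher, with cbh1 (9.27) and cbh2 (9.04) first, then cel12a (8.78), egl2 (8.49), egl1 (7.32), egl5 (6.74) and cel74a (4.57). Every adjusted p in these comparisons was at most 0.000573 by edgeR. Both comparisons share the same 2 glucose libraries, which hold between 8 and 522 counts of each gene, so their values are not independent of each other.

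The cultures with the inducers, which also differ in their times (24 to 72 h in cellulose and 2 to 6 h in sophorose), differed for part of the genes. In QM9414 cel12a and cel74a were higher in cellulose than in sophorose, which is 2 of the 7 genes, where 10.2% of the genes tested were called higher. Cel74a had a log2 fold change of 1.46 (95% interval 0.76 to 2.15, adjusted p = 0.00248 by edgeR), with means of 1413 ± 171 CPM in cellulose and 514 ± 47.2 CPM in sophorose. Cel12a had 1.65 (0.54 to 2.76, adjusted p = 0.0213), with 910.0 ± 88.6 CPM in cellulose and 290.4 ± 54.7 CPM in sophorose. Egl2 had the highest value of the 7, 1.86 (0.26 to 3.46), with no overlap between 1826 ± 88.6 CPM in cellulose and 504 ± 96.1 CPM in sophorose (SD, n = 3 for each mean), but it was not called (adjusted p = 0.0652 by edgeR). The 4 remaining genes overlapped between the inducers, with −0.13 for cbh1, 0.15 for cbh2, −0.17 for egl1 and −0.03 for egl5. The intervals of egl1 (−0.75 to 0.40) and egl5 (−0.68 to 0.63) exclude a change of 2-fold, whereas those of cbh1 (−2.39 to 2.14) and cbh2 (−2.08 to 2.38) do not. All of these intervals come from the fit over 17 libraries, so the wide spread of cbh1 and cbh2 in the mutant enters theirs. In QM9414 itself cbh1 had means of 12765 ± 865 CPM in cellulose and 13939 ± 1373 CPM in sophorose. Cbh2 had 5974 ± 461 CPM in cellulose and 5383.5 ± 629 CPM in sophorose (SD, n = 3 for each). In a fit of these 6 libraries alone, without the mutant libraries and glucose, egl2 was called (log2 fold change 1.82, adjusted p = 4.1e-05 by edgeR). The call of cel12a was lost with DESeq2 (adjusted p = 0.233), with library totals in place of TMM factors (0.0533) and without QM9414 sophorose replicate 2 (0.0730) or replicate 3 (0.0868).

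The ratios between genes within a library need no scaling between libraries, and were chosen after the levels had been seen. As a percentage of the cbh1 counts, egl2 counts were 14.3 ± 0.286% in cellulose and 3.62 ± 0.586% in sophorose, cel12a counts were 7.12 ± 0.375% in cellulose and 2.08 ± 0.284% in sophorose, and cel74a counts were 11.04 ± 0.614% in cellulose and 3.72 ± 0.509% in sophorose (SD, n = 3 each). None of these 3 ratios overlapped between the inducers, and the exact two-sided permutation test gave p = 0.1 for each, the smallest that 3 libraries against 3 allow (0.15 adjusted over the 6 ratios). Cbh2 counts were 46.8 ± 0.594% of those of cbh1 in cellulose and 38.7 ± 3.02% in sophorose, also without overlap and with the same p, but 1.21-fold apart. Egl1, at 3.93 ± 0.174% in cellulose and 4.06 ± 0.126% in sophorose, and egl5, at 1.23 ± 0.0831% in cellulose and 1.15 ± 0.0284% in sophorose, overlapped.

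**Figure D3:**
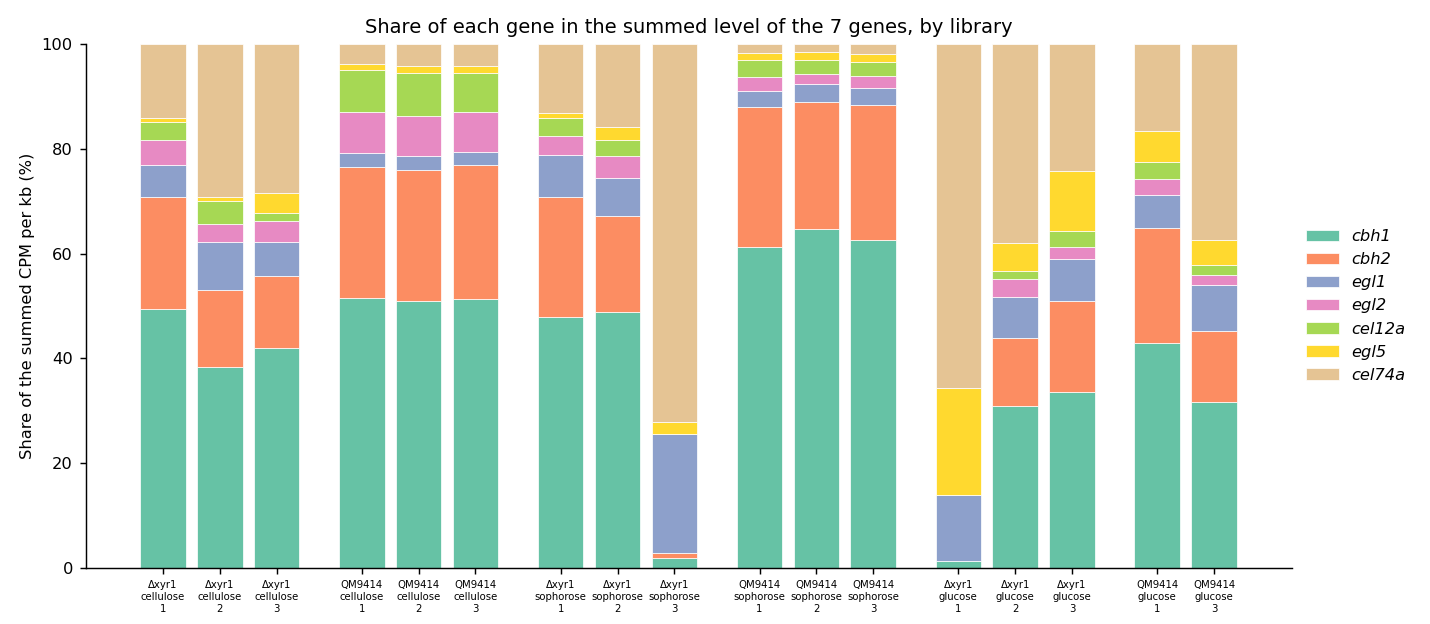
Share of each gene in the summed CPM per kb of the 7 genes, in percent, for each library (1 bar per library, groups by carbon source with Δxyr1 left of QM9414). The bars of QM9414 are nearly alike within an inducer, with cbh1 and cbh2 together at 76.0% to 76.9% in cellulose and 88.0% to 88.9% in sophorose, whereas in Δxyr1 sophorose replicate 3 and Δxyr1 glucose replicate 1 cel74a alone takes 72.1% and 65.6%.

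The proportions of the 7 transcripts per length were reproducible in induced QM9414. Cbh1 took 51.2 ± 0.308% of their summed CPM per kb in cellulose and 62.8 ± 1.76% in sophorose, and cbh2 took 25.3 ± 0.310% in cellulose and 25.6 ± 1.29% in sophorose. Cel12a (7.92 ± 0.385%) and egl2 (7.74 ± 0.196%) each lay above egl1 (2.53 ± 0.102%) in cellulose, while in sophorose egl1 had 3.21 ± 0.185%, cel12a 2.83 ± 0.314% and egl2 2.39 ± 0.322% (SD, n = 3 for each). Cel74a had 4.02 ± 0.204% in cellulose and 1.66 ± 0.198% in sophorose. In Δxyr1 in cellulose cel74a took between 14.0% and 29.1% of the sum, against 3.79% to 4.16% in QM9414, and cbh1 between 38.4% and 49.3%, against 50.9% to 51.5%.

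Within Δxyr1 the carbon sources were compared to see which response was left without xyr1. Egl5 was the only one of the 7 genes called. It was lower in cellulose than in glucose (log2 fold change −2.78, 95% interval −3.97 to −1.60, adjusted p = 0.000357 by edgeR), where 21.2% of the genes tested were called lower, and lower in sophorose than in glucose (−2.14, −3.17 to −1.10, adjusted p = 0.00126), where 16.6% were called lower. These directions are opposite to those in QM9414. The levels rest on few reads, with 4, 2 and 10 counts in cellulose and 4, 22 and 6 in sophorose, against 47, 20 and 67 in glucose. Egl5 was called in both comparisons under every alternative run, including each library left out in turn, with log2 fold changes between −3.55 and −1.98 for cellulose and between −3.15 and −1.59 for sophorose. Cel74a had −0.80 (−1.51 to −0.10, adjusted p = 0.0417 by edgeR) in cellulose against glucose, which passes the p threshold but not the fold threshold. Cbh1, cbh2, egl2 and cel12a were not called in either, with or without the pair of libraries that stood apart. Their intervals in these comparisons were wide, and the narrowest, that of cel12a in sophorose against glucose, reached from −1.21 to 2.64. Between cellulose and sophorose none of the 7 genes was called in Δxyr1, where 25.3% of the genes tested were called in either direction, and egl1 had the lowest value (−0.80, adjusted p = 0.0486 by edgeR), also short of the fold threshold and the only one with an unadjusted p under 0.05. DESeq2 called none there. Without Δxyr1 cellulose replicate 1 (−1.24) or sophorose replicate 1 (−1.01) egl1 was called there.

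The effects of the strain were then compared between carbon sources with interaction terms in the same fit. Each term equals the carbon source change in Δxyr1 minus that in QM9414, so it is not separate evidence from the comparisons above. The strain effect was more negative in cellulose than in glucose for all 7 genes, where 11.3% of the genes tested were called lower, with differences between −9.82 for cel12a and −6.83 for cel74a on the log2 scale. It was also more negative in sophorose than in glucose for all 7, where 5.48% were called lower, with differences between −8.88 for egl5 and −4.92 for cel74a. Without QM9414 glucose replicate 1 the call of cbh1 was lost in sophorose against glucose (adjusted p = 0.0502 by edgeR), and without replicate 3 those of cbh1 (0.0567) and cbh2 (0.0558). Between cellulose and sophorose only cel74a was called, with a difference of −1.91 (95% interval −2.90 to −0.92, adjusted p = 0.00380 by edgeR), where 16.8% were called lower. Its parts were log2 fold changes of cellulose against sophorose of −0.45 in Δxyr1, not called, and 1.46 in QM9414. Egl2 (−1.73) and cel12a (−1.75) had similar values with adjusted p of 0.245 and 0.172. Without Δxyr1 sophorose replicate 3 and Δxyr1 glucose replicate 1, an alternative chosen after seeing the values, egl2 (−2.26, adjusted p = 0.00605) and cel12a (−2.26, 0.00577) were called beside cel74a (−1.46, 0.00786). Without Δxyr1 sophorose replicate 3 alone cel12a was called beside cel74a (−2.24, adjusted p = 0.0422), and without Δxyr1 cellulose replicate 1 egl1 was (−1.07, 0.0381).

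Cbh1, cbh2, egl2 and cel12a were close to or at 0 in the pair of mutant libraries that stood apart, which were picked out after the values had been seen. In Δxyr1 sophorose replicate 3 and Δxyr1 glucose replicate 1 there were 10 and 6 counts of cbh1, 4 and 0 of cbh2, 0 and 0 of egl2, and 0 and 0 of cel12a, although these were the 2 libraries of the mutant with the highest totals. The other 7 mutant libraries held 207 to 903 counts of cbh1, 73 to 320 of cbh2, 18 to 73 of egl2 and 4 to 27 of cel12a. In CPM none of the 4 genes overlapped between these 2 libraries and the other 7. Egl1 (93 and 48 counts), egl5 (6 and 47) and cel74a (521 and 439) did overlap with them. How many of all genes tested had no overlap was not counted. At least 5-fold lower in both libraries than in each of the other 7 were 4 of the 8506 genes tested, namely cbh1, cbh2, egl2 and cel12a. As the 2 libraries were picked after these values had been seen, that count is a description and no test. For cel12a the zeros allow up to 0.216 and 0.160 CPM, and the lowest of the other 7 libraries had 0.326 CPM from 4 counts, so that the gap is small beside the counting error. Of the 8 other genes of the cellulose-degrading system, named further on, cel61b and cip1 were low in both libraries too. Cel61b, a lytic polysaccharide monooxygenase gene, had 0.288 and 0.0533 CPM in the 2 libraries, against 1.38 to 4.86 CPM in the other 7. Cip1, a gene for a secreted protein with a cellulose-binding module, had 0.0720 and 0.266 CPM in the 2 libraries, against 0.733 to 4.11 CPM in the other 7. The rest of that list did not share this pattern. Cel61a (2.67 and 0.533 CPM), swo1 (9.01 and 15.5 CPM) and cip2 overlapped with the other 7 libraries. Bgl1, bgl2 and crt1 had their lowest mutant values in glucose replicate 1, but were not low in sophorose replicate 3 (3.60, 2288 and 7631 CPM).

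**Figure D4:**
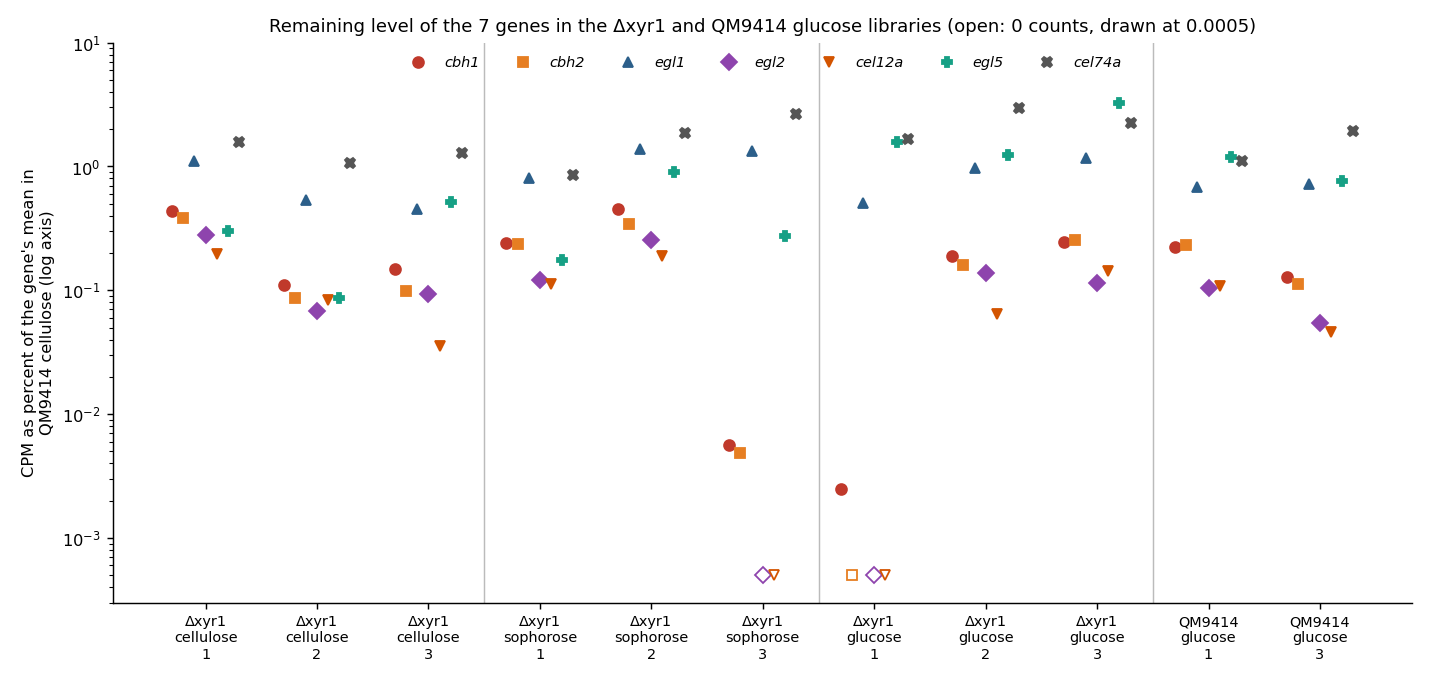
Level of each gene in the libraries of Δxyr1 and of QM9414 in glucose, as a percentage of its mean CPM in QM9414 in cellulose, on a log axis (open symbols are libraries with 0 counts, drawn at 0.0005). In Δxyr1 sophorose replicate 3 and Δxyr1 glucose replicate 1, cbh1 lies at 0.00564% and 0.00251%, against 0.111% to 0.454% in the other 7 mutant libraries, while cel74a lies at 2.66% and 1.66%, within its range of 0.848% to 2.94%.

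Set against the mean level in QM9414 in cellulose, cbh1 stood at 0.111% to 0.454%, cbh2 at 0.0862% to 0.383%, egl2 at 0.0677% to 0.279% and cel12a at 0.0358% to 0.195% in the 7 mutant libraries. Egl1 stood at 0.455% to 1.38%, egl5 at 0.0871% to 3.26% and cel74a at 0.848% to 2.94% there. The counts of cbh2 in these 7 libraries were between 31.5% and 49.0% of those of cbh1, against 35.5% to 47.4% in the 6 induced libraries of QM9414. In QM9414 in glucose they were 48.4% and 40.4%. Other ratios to cbh1 differed from the induced ones: egl1 had 10.0% to 20.2%, against 3.76% to 4.15%, and cel74a 38.8% to 173.7%, against 3.15% to 11.5%. The egl2 counts were 6.62% to 10.5% of those of cbh1. This lies between the induced values in sophorose (3.05% to 4.22%) and in cellulose (14.1% to 14.6%), without overlap with either. For cel12a and egl5 the range in the 7 mutant libraries overlapped with induced values. Whether all reads of the 7 genes came from the RNA of the library in which they were counted was not tested. The fold changes between the strains and against glucose rest on these reads. Across the 11 libraries of Δxyr1 and of QM9414 in glucose, the Pearson correlation of log2 CPM with 1 added was 0.99 between cbh1 and cbh2, 0.95 between cbh1 and egl2 and 0.90 between cbh1 and cel12a, but 0.24 between cbh1 and egl1, 0.01 between cbh1 and egl5 and −0.24 between cbh1 and cel74a. These correlations describe libraries that share groups and depth, and without the pair of libraries that stood apart they were 0.97 for cbh2, 0.94 for egl2, 0.89 for cel12a, 0.82 for egl1, 0.16 for egl5 and 0.14 for cel74a (9 libraries). The share of protein 48266 was highest in the pair of libraries, but Δxyr1 glucose replicate 2, with 18.4%, had 23.9 CPM of cbh1, and Δxyr1 cellulose replicate 1, with 10.1%, had 55.7 CPM. The part of this gene in the low levels was not tested.

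The other genes of the cellulose-degrading system were examined beside the 7. All 8 genes of that list were called lower in Δxyr1 in cellulose, where 10.3% of all genes tested were: the lytic polysaccharide monooxygenase genes cel61a (−8.65) and cel61b (−10.34), the swollenin gene swo1 (−7.05), cip1 (−9.21), the glucuronoyl esterase gene cip2 (−8.28), the β-glucosidase genes bgl1 (−6.99) and bgl2 (−6.89) and the sugar transporter gene crt1 (−6.63). In sophorose 6 of the 8 were lower, where 6.47% of all genes were, and bgl2 (−0.68) and crt1 (−1.18) were not called, whereas all 7 chain-cutting genes were. The strain effect was more negative in cellulose than in sophorose for 5 of the 8, by edgeR calls, where 16.8% of all genes tested were called lower. Among these 5 were bgl2, with a difference of −6.21, and crt1, with −5.45, and the median of the 8 was −1.91. The median log2 fold change of the 8 was −7.66 in cellulose and −6.27 in sophorose. In QM9414 cel61b was higher in cellulose than in sophorose (log2 fold change 3.58), which is 1 of the 8 where 10.2% of all genes were called higher. Bgl2 (−1.67, adjusted p = 0.00191 by edgeR) and crt1 (−2.05, 0.0170) were lower in cellulose than in sophorose, 2 of the 8 where 7.17% of all genes were called lower.

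Other genes of the same glycoside hydrolase families were examined as well. Of 9 other genes of families GH5, GH12 and GH74, 8 passed the filter on low counts. In cellulose 2 of them were lower in Δxyr1, where 10.3% of all genes tested were, the GH5 genes 56996 (log2 fold change −10.04) and 82633 (−2.43), and the median of the 8 was −0.57, while that of the 7 genes was −8.76. In sophorose 3 of the 8 were lower in Δxyr1 (gene 56996 at −4.43, gene 82633 at −2.25 and gene 64375 at −1.01), where 6.47% of all genes were, and 1 was higher (the GH12 gene 77284 at 1.14), where 10.8% were. The median of the 8 was −0.50 there. In QM9414 in cellulose against glucose 1 of the 8 was higher (gene 56996, 10.70), where 19.2% of all genes were, and 4 were lower, where 13.6% were. Gene 56996 had 318, 389 and 336 CPM in cellulose against 10.7, 6.32 and 5.69 CPM in sophorose in QM9414, a log2 fold change of 5.53.

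Over the 17 libraries, the genes whose log2 CPM was most like the mean standardized profile of the 7 were cip1 (Pearson r = 0.998), protein 72526 (0.993), axe1 (0.993), protein 121418 (0.992) and protein 121127 (0.992). The libraries fall into an induced and a non-induced cluster, so these values describe mainly that contrast. By Spearman's coefficient only cip1 (0.971) remained among the first 5.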

How the data were processed

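Illumina reads were aligned by the authors with TopHat2 2.0.4 to the T. reesei 2.0 genome, unique alignments were kept, and HTSeq 0.6.0 gave the deposited counts of reads per gene, which are raw counts without normalization. The deposited normalized counts and the authors' table of fold changes and p values made with DESeq2 1.6.3 were not used. The 7 genes, the lists, the tests and the alternatives were chosen with earlier results of these data known. Named genes are the 7, the 8 genes of the system, the 9 genes of the families, xyr1 and the 5 genes most alike by Pearson's r.

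The analysis of these counts used edgeR 4.0.16 in R 4.3.3: TMM factors and 1 quasi-likelihood fit over 17 libraries and 6 groups. Of 9129 genes, the 8506 that reached 10 counts in 2 or more libraries were tested. Standard errors were derived from the tests of this fit, as the size of the log2 fold change divided by the square root of the F statistic. The 95% intervals were set symmetrically around the log2 fold change with these errors. They are approximate, and how well they hold for large changes against counts near 0 was not tested. Calls required an adjusted p (Benjamini-Hochberg) up to 0.05 and a 2-fold change or more. Alternatives were DESeq2 1.42.0, RLE and upper-quartile factors, library totals, no filter, at least 1 CPM in at least 3 libraries, the compared groups alone, a replicate block, each library left out, and no fold threshold. The fit was also run on simulated data with the same spread for every gene and no libraries that stood apart. That run does not test the fit at the levels and spread of the 7 genes in the mutant. Lengths are RefSeq gene spans (assembly v2.0 of strain QM6a), to which all 7 genes were matched by locus tag. Coding lengths had been planned. The replicates are described as biological. Library totals of 7014100 to 29056712 counts set the precision of low counts. Sequences and genome positions are not given here.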

Additional observations from a re-analysis of the deposited data

Results flagged for a closer look

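The strain effect of all 7 genes differed between an inducing carbon source and glucose, by interaction terms of the edgeR fit. In cellulose against glucose the difference on the log2 scale was −8.47 for cbh1, −8.75 for cbh2, −7.50 for egl1, −9.50 for egl2, −9.82 for cel12a, −9.50 for egl5 and −6.83 for cel74a. In sophorose against glucose it was −8.58 for cbh1, −8.54 for cbh2, −6.88 for egl1, −7.77 for egl2, −8.07 for cel12a, −8.88 for egl5 and −4.92 for cel74a. Both sets share the glucose libraries of both strains, and each value equals the carbon source change in Δxyr1 minus that in QM9414. Between cellulose and sophorose the difference in strain effect was −1.91 for cel74a. It was called, where 16.8% of all genes tested were called lower, so a call of 1 of the 7 does not set them apart. The difference was −1.73 for egl2 and −1.75 for cel12a, which were not called with all libraries.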

How the results depend on the processing

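Of the 12 comparisons, 8 kept their number of called genes among the 7 within 1.5-fold under every alternative run. In cellulose against sophorose in QM9414, where 2 were called, 1 was called with library totals only and 1 with DESeq2, and between 1 and 2 with each library left out. In cellulose against glucose in Δxyr1 2 were called without a fold threshold, and in cellulose against sophorose in Δxyr1 1 was, and between 0 and 1 with each library left out. For the strain effect in cellulose minus sophorose the number lay between 1 and 3 with libraries left out, with 3 without the pair of libraries that stood apart, an alternative chosen after seeing the values. For sophorose minus glucose it lay between 5 and 7. The cause of these changes was not tested.

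Sign changes occurred only in values that were not called. With library totals only, the log2 fold change in glucose became −0.26 for egl1 and −0.54 for egl2, that in cellulose against glucose in Δxyr1 became 0.013 for cel74a, and the difference of the strain effect in cellulose and sophorose became 0.12 for cbh2, 0.033 for egl1 and 0.015 for egl5. This scaling moved the median of all genes to −0.60 between the strains in glucose. With each library left out, the strain effect in glucose lay between −0.90 and 0.34 for cbh1, −1.14 and 0.34 for cbh2, −1.56 and 0.62 for cel12a and −0.52 and 0.76 for egl2. The difference between cellulose and sophorose lay between −0.72 and 1.03 for cbh1, −1.22 and 0.49 for cbh2 and −1.39 and 0.40 for egl5, and egl5 in cellulose against sophorose in QM9414 lay between −0.11 and 0.075. The log2 ratio of the summed share of counts in glucose, −0.41, became 0.16 with CPM and TMM factors, and lay between −0.77 and −0.01 with each library left out.

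With a replicate block the number of called genes was the same in each of the 12 comparisons, and egl2 in glucose became −0.080. It was not settled whether replicate numbers pair the libraries. In 40 pairs of libraries with the same number, the correlation of deviations from group means was between −0.26 and 0.44. Its median was 0.056, against −0.012 for pairs with different numbers, and 17 of the 40 were over 0.1. Of 17 libraries, 9 correlated best with their own number. Counts without division by length gave cbh1 54.2% in cellulose and 65.3% in sophorose. Depth limits cel12a, egl2 and egl5 outside induction, where a library held between 0 and 73 counts of each.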
